A study of Mus musculus with 18 samples.

Results

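The sequences described here are the 512 8-base sequences (8-mers) in which GCAA, the C/EBP half-site, directly follows a purine on the strand that carried the modified cytosine. They were taken from the deposited 8-mer table by sequence alone: adenine or guanine before GCAA in the 8-mer as written, and no GCAA in its reverse complement. All 512 possible 8-mers of this kind were in the table of 65530, 256 with adenine and 256 with guanine, and none had to be left out for a GCAA on the other strand. Binding was read with protein binding microarrays: double-stranded DNA probes are covered with a protein, and the fluorescence of an antibody to its tag is measured at each probe. Mouse CREB1, ATF1 and JUND were used as DNA-binding domains with short native flanks and a glutathione S-transferase tag, made in a cell-free system. They are not full-length proteins. For each protein the DNA was made with 5-methylcytosine (5mC), 5-hydroxymethylcytosine (5hmC) or plain cytosine (C), with 2 arrays of one design for each of the 9 groups and 18 arrays in all. Only the strand synthesized on the array carried the modified base, at every cytosine, while the printed strand kept plain cytosine. Nothing in the sources states that paired arrays were run with separately made protein, so a p-value here measures only the spread between arrays, which may be technical.

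CREB1, ATF1 and JUND are basic leucine zipper (bZIP) proteins, which grip DNA as dimers with each subunit reading a half-site. CREB1 and ATF1 are known for the cAMP response element, whose centre is the tetranucleotide ACGT, and JUND for the AP-1 site. GCAA is the half-site of C/EBP, another bZIP family, and the base before it decides what the half-site looks like at its edge: a cytosine there makes a CpG, a thymine presents a methyl group of its own, and a purine does neither. In the 8-mers described here the cytosine of GCAA itself is the modified base that all members share.

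The sequences that carry the results are shown first, as they read 5′ to 3′ on the modified strand, with the purine and the half-site in capitals. The first 4 hold adenine and are among those with high values on modified DNA in the CREB1 results.
adenine, TG before and T after: tgAGCAAt
adenine, at the start of the 8-mer, TAC after: AGCAAtac
adenine, G before and TG after: gAGCAAtg
adenine, at the start of the 8-mer, CAC after: AGCAAcac
The next 4 hold guanine and are among the corresponding high ones.
guanine, at the start of the 8-mer, TCA after: GGCAAtca
guanine, A before and TA after: aGGCAAta
guanine, T before and TA after: tGGCAAta
guanine, TGA before: tgaGGCAA
The last 2 are the only members that also hold ACGT.
adenine, ACGT across the end: AGCAAcgt
guanine, ACGT across the end: GGCAAcgt

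Each member is measured through many probes. Of the 40330 probes, each with 35 variable bases, 2401 carried a member on the synthesized strand, and a member lay on 11 to 33 probes with a median of 17. Members overlap one another and share probes, so they are not replicates of a condition. The first sequence above lay on 13 probes with neither ACGT nor GCAA after a pyrimidine on either strand. Among these, a probe of the usual brightness was the following, on the synthesized strand.
probe with TGAGCAAT: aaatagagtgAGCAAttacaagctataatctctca
A probe chosen in the same way, among the 18 with the first guanine sequence, was the following.
probe with GGCAATCA: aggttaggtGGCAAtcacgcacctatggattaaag
Relative to the median probe of its array, the adenine probe gave 4.98 and 1.04 times the signal on the 2 CREB1 5mC arrays and 5.50 and 1.29 times on the 2 CREB1 5hmC arrays, against 1.00 and 1.05 times on the 2 CREB1 C arrays. The guanine probe gave 2.33 and 2.26 times on the CREB1 5mC arrays and 1.07 and 1.06 times on the CREB1 5hmC arrays, against 1.30 and 1.48 times on the CREB1 C arrays. The adenine probe was bright on replicate 1 of each modified group and nearer the array median on replicate 2, a difference between arrays that recurs in the adenine results. The guanine probe was brighter on both 5mC arrays than on the C arrays, but dimmer on both 5hmC arrays. On 5hmC it ran against its member GGCAAtca, whose z-score rose, as given below. A single probe thus need not follow its member on every array.

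The values below are the deposited z-scores, given as replicate 1 and then replicate 2 unless stated. A z-score of 0 is close to the middle of all 8-mers on an array, and a z-score of 4 or more is called bound. Arrays differed in brightness, JUND 5hmC replicate 2 being the dimmest with a median probe signal of 519, 1.62 times its local background, and JUND 5mC replicate 1 the brightest with 8014, 14.6 times. The number of saturated probes on an array ran from 0 to 84, and at most 4 of them carried a member. On CREB1 5mC the median signal was 2.10 times background on replicate 1 and 8.34 times on replicate 2, and on CREB1 5hmC it was 1.81 and 2.84 times. The 2 arrays of a group correlated over the 512 members with Pearson r from 0.223 for JUND on 5hmC to 0.828 for ATF1 on 5mC, and for CREB1 with 0.611 on 5mC, 0.528 on 5hmC and 0.778 on C. The 8-mers share probes, so these correlations only describe the arrays.

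With 5mC, the CREB1 z-score was above that on C at 252 of 256 members with adenine and 239 of 256 with guanine. Among members with adenine 76 of 256 rose in limma at an adjusted p under 0.05 and 1 fell, and among members with guanine 50 of 256 rose and 1 fell. Over all 65121 tested 8-mers, 2.25% rose and 6.21% fell. The median change was 2.19 with adenine and 1.21 with guanine, against -0.063 over all tested 8-mers. At an unadjusted p under 0.05, 172 members with adenine and 115 with guanine differed. The 2 CREB1 5mC arrays both lay above the 2 C arrays at 196 members with adenine and 191 with guanine, against 21.8% of all tested 8-mers. This count, which ignores size, was nearly the same for both purines.

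The size of the gain with adenine rested largely on 1 array. The median z-score of members with adenine was 3.23 on CREB1 5mC replicate 1 and 1.02 on replicate 2, against -0.0583 and -0.125 on C. With guanine it was 1.42 and 0.870 on 5mC, against -0.120 and -0.0644 on C. Both purines were thus above their C arrays on both 5mC arrays, but of the 2 5mC arrays adenine stood well above guanine on replicate 1 alone. Without CREB1 5mC replicate 1 the count of members that rose fell to 12 with adenine and 11 with guanine, and without replicate 2 it was 149 with adenine and 61 with guanine. Leaving out C replicate 1 or C replicate 2 gave 29 or 25 with adenine and 16 or 24 with guanine. The risers over all tested 8-mers also became fewer without 5mC replicate 1 or either C array, though not without 5mC replicate 2. The bound members showed the same split between replicates. On 5mC replicate 1, 100 with adenine and 21 with guanine were bound, where 2.53% of all 8-mers were. On replicate 2 they were 7 and 4, where 1.96% of all 8-mers were. Those bound on both 5mC arrays were 6 with adenine and 3 with guanine, against 1.38% of all 8-mers. With guanine the share was below that of all 8-mers, here and on replicate 2, and with adenine it was above. The 3 with guanine, named after their values were seen, were aGGCAAta, GGCAAtac and tgaGGCAA.

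The member with the largest rise on 5mC was tgAGCAAt, which had 11.6 and 5.17 on the CREB1 5mC arrays, against 0.434 and 0.292 on the C arrays. Both 5mC arrays lay far above both C arrays, and the difference was 8.03 ± 2.33 (SE, limma adjusted p = 0.0348). It has no cytosine besides that of GCAA, so on the modified strand 1 modified base stood in the 8-mer. Over 13 alternatives in processing and arrays, 4 kept its call and 9 missed the threshold. The call at tgAGCAAt rested on single arrays: the change was 4.81 without CREB1 5mC replicate 1 (limma adjusted p = 0.397), 11.25 without 5mC replicate 2, and 8.10 or 7.96 without C replicate 1 or 2, and it passed only without 5mC replicate 2. The next was gAGCAAtg, with 8.45 and 6.19 on 5mC against 0.441 and 0.253 on C, a difference of 6.97 ± 1.48 (SE, limma adjusted p = 0.0033). AGCAAtac had 11.3 and 6.27 on 5mC, against 2.83 and 1.35 on C. It was the member with the highest mean on 5mC, at 8.79 ± 3.57 (SD, n = 2). The difference was 6.70 ± 1.90 (SE, limma adjusted p = 0.0303). AGCAAcac differed by less but with closer arrays, 6.46 and 4.71 on 5mC against -0.0903 and -0.237 on C, for 5.75 ± 0.863 (SE, limma adjusted p = 1.01e-04). Without 5mC replicate 1 the calls at gAGCAAtg and AGCAAtac were lost, with changes of 5.84 and 4.18, and without C replicate 2 that at AGCAAtac was lost as well. The call at AGCAAcac was kept without any 1 of the 4 arrays.

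With guanine the largest rise was at GGCAAtca, with 8.62 and 3.24 on the CREB1 5mC arrays, against -0.189 and 0.274 on the C arrays. The difference was 5.89 ± 1.20 (SE, limma adjusted p = 0.0023). aGGCAAta had 5.19 and 4.68 on 5mC, against -0.296 and -0.0449 on C, and rose by 5.10 ± 0.899 (SE, limma adjusted p = 5.71e-04). GGCAAtac, the guanine partner of AGCAAtac, had 4.74 and 4.80 on 5mC, against 0.722 and 0.293 on C, and rose by 4.26 ± 0.903 (SE, limma adjusted p = 0.00329). In these last 2 members the 5mC arrays were within 1 z-score of each other and both far above C. ttGGCAAt had 6.73 and 1.31 on 5mC, against -0.545 and -0.502 on C, and its adjusted p was 0.0223 in the same fit. The member cgaGGCAA, with a CpG ahead of the purine, had 4.82 and 2.12 on 5mC, against -0.516 and -0.976 on C, with an adjusted p of 5.11e-04. Without 5mC replicate 1 the changes at GGCAAtca and ttGGCAAt were 3.20 and 1.83 and missed the threshold, as did ttGGCAAt without either C array. The calls at aGGCAAta, GGCAAtac and cgaGGCAA were kept without any 1 of the 4 arrays.

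With 5hmC, fewer members passed the test for CREB1. Those that rose were 32 of 256 with adenine and 26 of 256 with guanine, against 1.12% of all tested 8-mers, and 1 of each purine fell, against 6.78%. The median change was 1.52 with adenine and 0.803 with guanine, and -0.0616 over all tested 8-mers. At an unadjusted p under 0.05 there were 119 members with adenine and 67 with guanine. Both 5hmC arrays lay above both C arrays at 168 members with adenine and 162 with guanine, against 23.6% of all tested 8-mers. The share of such members was again nearly the same for the 2 purines.

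Adenine on 5hmC leaned still more on replicate 1. The median z-score with adenine was 2.37 on CREB1 5hmC replicate 1 and 0.635 on replicate 2, and with guanine 0.865 and 0.654. On replicate 2 adenine and guanine were thus at the same level. Without 5hmC replicate 1 no member with adenine rose in limma and 14 with guanine did. Without replicate 2 the counts were 79 with adenine and 16 with guanine. Without C replicate 1 they were 5 and 11, and without C replicate 2 they were 2 and 9. The risers over all tested 8-mers also became fewer without each of these arrays. Bound members were 63 with adenine and 11 with guanine on 5hmC replicate 1, where 1.72% of all 8-mers were bound. On replicate 2 they were 2 and 12, where 1.8% were. On both arrays 2 members with adenine, AGCAAtac and tgAGCAAt, and 7 with guanine were bound, against 1.13% of all 8-mers. With adenine the share was below that of all 8-mers, here and on replicate 2, and with guanine it was above.

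The member tgAGCAAt also had the largest called rise on 5hmC, with 13.7 and 5.28 against 0.434 and 0.292 on C, a difference of 9.15 ± 2.33 (SE, limma adjusted p = 0.0155). gAGCAAta had 13.8 and 2.46 on 5hmC, against 0.372 and -0.884 on C, and AGCAAtac had 11.2 and 6.73, against 2.83 and 1.35. The adjusted p in limma was 0.0150 and 0.0267, but gAGCAAta was over 5 times as high on replicate 1 as on replicate 2. The highest mean of any member on CREB1 5hmC was that of atgAGCAA, with 20.7 and 3.46 against 0.897 and 0.746 on C. That difference, 11.3 ± 3.55 (SE), missed the threshold at a limma adjusted p of 0.0575. Without 5hmC replicate 1 the changes at tgAGCAAt, gAGCAAta and AGCAAtac were 4.92, 2.71 and 4.64, and all 3 missed the threshold. All 3 also missed it without C replicate 2, and tgAGCAAt without C replicate 1.

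With guanine the 5hmC arrays were closer to each other. tGGCAAta had 7.58 and 6.35 on 5hmC, against 0.846 and -0.0634 on C, and rose by 6.57 ± 1.29 (SE, limma adjusted p = 0.00172). GGCAAtca had 5.44 and 5.66 on 5hmC, against -0.189 and 0.274 on C, for 5.51 ± 1.20 (SE, limma adjusted p = 0.00451). atGGCAAt had 6.89 and 6.20 on 5hmC, against 1.81 and 1.16 on C, at an adjusted p of 0.0032. All 3 held T after the half-site, and in each both 5hmC arrays lay close together and well above C. GGCAAtga, with 6.67 and 6.92 on 5hmC against 2.05 and 1.59 on C, and tGGCAAtt, with 5.84 and 4.40 against -0.174 and 0.666, rose as well (limma adjusted p = 0.00606 and 8.28e-04). Of these 5 calls, only that at GGCAAtga was lost by leaving out 1 array, C replicate 2 (adjusted p = 0.0541).

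Set directly against each other, the modified bases differed at few members. On 5hmC against 5mC, CREB1 fell at 1 member with adenine and 2 with guanine, where 0.766% of all tested 8-mers fell, and none rose. At an unadjusted p under 0.05 there were 39 and 28 members. The 3 were AGCAAgca, with 1.44 and -1.68 on 5hmC against 4.01 and 2.71 on 5mC, GGCAAcgc, with 0.211 and -0.365 against 2.32 and 3.01, and tGGCAAgt, with -0.931 and -0.812 against 2.11 and 1.31. The changes were -3.48, -2.74 and -2.58 (limma adjusted p = 0.0460, 0.0216 and 0.00721). The 3 were 0.586% of the members, below the share of all tested 8-mers that fell. Without 5mC replicate 1 there was 1 such call, without 5hmC replicate 2 none, and without 5mC replicate 2 there were 13. The median of 5hmC minus 5mC was -0.695 with adenine and -0.398 with guanine, against -0.0261 over all tested 8-mers.

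The base after the half-site went with the size of the gain, and T stood highest after either purine. On 5mC, of 48 members with adenine each, 23 rose with T next, 21 with C, 14 with G and 2 with A, and the median changes in that order were 3.08, 2.35, 1.81 and 1.56. With guanine 23 of 48 rose with T next, 9 with C, 6 with G and 0 with A, and the medians were 2.47, 1.16, 1.07 and 0.606. With A after GGCAA, 4 of 48 members had an unadjusted p under 0.05. The order T, C, G, A was the same for both purines. On 5hmC, with adenine, 18 members rose with T next, 8 with C, 0 with G and 2 with A. With guanine 15 rose with T, 3 with C, 0 with G and 0 with A, and 1 and 3 of 48 had an unadjusted p under 0.05 with G and with A. The median changes on 5hmC with T next were 2.76 with adenine and 2.04 with guanine, against 1.05 and 0.47 with G next.

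T next also stood above A next on single arrays. On CREB1 5mC replicate 1 the median z-score with adenine was 4.78 with T next and 2.61 with A next, and on replicate 2 it was 1.85 and 0.332. With guanine it was 3.71 and 0.785 on replicate 1, and 1.97 and 0.167 on replicate 2. On replicate 2, where adenine and guanine hardly differed, T next was still above A next for both. Of the 16 pairs of next bases, TA gave the highest median change after either purine: 3.55 with adenine and 3.77 with guanine on 5mC, and 5.18 and 3.50 on 5hmC, over 8 members each. These 8 members share probes, and the values are a description.

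The counts varied less with the base before the purine. On 5mC with adenine, members with A, C, G or T ahead rose in 10, 15, 13 and 15 of 48 cases, and with guanine in 7, 10, 6 and 10. The 8 members with TG before AGCAA had the highest median change of the 16 dinucleotides ahead of it on 5mC, 4.01, and on 5hmC, 6.08, but only 1 and 4 of them passed the test. With TG before GGCAA the median change was 2.05 on 5mC and 1.92 on 5hmC. With adenine at position 1, 2, 3 or 4 of the 8-mer, 23, 18, 19 and 16 of 64 members rose on 5mC and 10, 9, 9 and 4 on 5hmC. With guanine there 17, 9, 12 and 12 of 64 rose on 5mC and 7, 6, 5 and 8 on 5hmC. Of members with no other cytosine on the modified strand, 20 of 108 with adenine and 14 of 108 with guanine rose on 5mC, against 41 and 26 of 108 with 1 further cytosine. On 5hmC these counts were 15 and 14 with no other cytosine, against 15 and 9 with 1 further cytosine.

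To compare the purines with the same flanks, each member with adenine was paired with the member that differed from it only by guanine, giving 256 pairs. The background was all pairs of 8-mers that differ only by A or G at 1 of positions 1 to 4. On CREB1 5mC the adenine member was called above its partner in 35 pairs and below in 3, against 5.88% and 3.98% of the background. On 5hmC it was above in 34 and below in 7, against 5.93% and 3.79%. On C it was above in 7, against 10.2%. The called pairs on modified DNA depended on replicate 1. Adenine was the higher of the pair in 225 of 256 on 5mC replicate 1 and in 147 on replicate 2, and in 213 on 5hmC replicate 1 and 111 on replicate 2. On the C arrays it was higher in 147 and 115. Without 5mC replicate 1 only 3 pairs were called above on 5mC, and without 5hmC replicate 1 none was on 5hmC. Leaving out replicate 2 instead gave 37 and 44.

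As a change from C, the purines differed at few pairs. On 5hmC the gain was larger with adenine in 1 of 256 pairs and smaller in 4, against 3.41% and 3.06% of all pairs. The number of pairs that differed either way on 5hmC, 5, was 34 without 5hmC replicate 2, where adenine had the larger gain in all, and 1 or 2 without C replicate 1 or 2. The gain on 5mC was larger with adenine in 7 of 256 pairs and smaller in 2, against 3.54% and 3.63% of all pairs. Both counts were below the background share, as were both on 5hmC. Without CREB1 5mC replicate 1 or without C replicate 2 there were 2 pairs with the larger gain, and without 5mC replicate 2 there were 22. The median of the difference over the pairs was 0.999 on 5mC and 0.667 on 5hmC. The pair gAGCAAtg and gGGCAAtg differed most in this direction: the guanine member had 3.77 and 1.97 on 5mC against 1.06 and 0.457 on C, and the gain with adenine was larger by 4.86 ± 1.33 (SE, limma adjusted p = 0.0354). aacAGCAA had 3.99 and 2.65 on 5mC against -0.481 and -0.659 on C, while aacGGCAA had 1.02 and 0.252 against 0.656 and 0.470. This gain was larger with adenine by 3.81 ± 0.799 (SE, limma adjusted p = 0.0059), and here both 5mC arrays of the adenine member lay above all 4 arrays of its partner. The call at the first pair was lost without any 1 of the 4 arrays, and that at the second without 5mC replicate 1 (adjusted p = 0.0618).

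Some pairs ran the other way. On 5hmC GGCAAtca stood above AGCAAtca, which had 2.26 and 1.22, and the level with adenine minus that with guanine was -3.81 ± 0.604 (SE, limma adjusted p = 0.00136). tgaAGCAA had 0.116 and -0.565 on 5hmC against 3.09 and 5.98 at tgaGGCAA, a difference of -4.76 ± 0.843 (SE, limma adjusted p = 0.00299). On 5mC the same pair had 2.34 and 0.356 with adenine against 4.95 and 5.26 with guanine, a difference of -3.76 ± 0.843 (SE, limma adjusted p = 0.0106). Both arrays of the guanine member were above both of the adenine member on each modified DNA. In atgAGCAA and atgGGCAA the order was the reverse: the guanine member had 1.55 and 0.655 on 5hmC, and the level with adenine was higher by 11.0 ± 2.60 (SE, limma adjusted p = 0.0166). Without 5hmC replicate 1 that difference was 2.80 (adjusted p = 0.619). Without replicate 2 the differences at tgaAGCAA were -2.98 on 5hmC and -2.60 on 5mC, and that at AGCAAtca was -3.18, and none of the 3 passed.

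The pair tgaAGCAA and tgaGGCAA belongs to a series in which TGA or TTA, each a frequent start of bZIP sites, is followed by any base and then GCAA.
TGA, adenine: tgaAGCAA
TGA, guanine: tgaGGCAA
TTA, adenine: ttaAGCAA
TTA, guanine: ttaGGCAA
tgaGGCAA rose on 5mC by 4.13 ± 0.923 (SE, limma adjusted p = 0.00516) and on 5hmC by 3.56 ± 0.923 (SE, adjusted p = 0.0174), with 0.581 and 1.37 on C. tgaAGCAA did not pass on either (adjusted p = 0.665 and 0.538 in limma). ttaAGCAA had 4.71 and 2.21 on 5hmC, against 0.539 and 0.207 on C, and ttaGGCAA had 3.07 and 3.81, against 0.656 and -0.0198, and both rose (limma adjusted p = 0.0381 and 0.0167). The call at tgaGGCAA on 5mC was kept without any 1 array. The 3 calls on 5hmC passed without 1 of the 4 arrays each and missed the threshold without any of the other 3, with a change of 2.12 at tgaGGCAA without 5hmC replicate 2 and of 1.835 at ttaAGCAA without 5hmC replicate 1. With a pyrimidine in the same place the z-scores were far higher. TGA, cytosine and GCAA had 103 and 42.4 on CREB1 5mC, against 66.4 and 78.1 on C, a change of 0.649 (limma adjusted p = 0.989), so its level was high without the modified base. TGA, thymine and GCAA had 113 and 164 on 5hmC, against 8.81 and 15.4 on C. No value of the 4 members with a purine exceeded 5.98 on any CREB1 array.

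As classes, 8-mers with GCAA after a pyrimidine had larger median changes on 5mC than those after a purine. On CREB1 5mC, 234 of 255 8-mers with cytosine before GCAA and 168 of 208 with thymine rose, with median changes of 9.15 and 4.57. On 5hmC, 1 of 255 with cytosine and 120 of 208 with thymine rose, with medians of 1.21 and 3.56. With cytosine on 5hmC, 23 of 255 had an unadjusted p under 0.05. The differences between these classes were not tested. Ranked by median z-score among all 1024 words of that length, AGCAA came 7th and 67th on the 2 CREB1 5mC arrays and GGCAA 39th and 91st, against 533rd and 590th and 593rd and 528th on C. On 5hmC AGCAA came 10th and 151st and GGCAA 90th and 143rd.

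The members were also compared with GCAA on the plain strand. The reverse complements of the members, which place TTGC on the modified strand and GCAA on the plain strand, rose on CREB1 5mC at 4 of 256 for adenine and 9 of 255 for guanine, with median changes of -0.077 and 0.389. These counts lie near the share of all tested 8-mers that rose, 2.25%, as given above. In the difference of each member and its reverse complement, the gain on 5mC was larger as written at 32 of 256 members with adenine and 16 of 255 with guanine, against 2.51% of all 8-mers. On 5hmC it was larger at 11 and 9, against 2.09%. For ATF1 on 5mC it was larger at 8 and 3, against 1.0%. Without CREB1 5mC replicate 1 the counts on 5mC were 4 and 4, without C replicate 1 they were 11 and 6, without C replicate 2 they were 8 and 5, and without 5mC replicate 2 they were 77 and 19. On 5hmC, leaving out 1 array gave 0 to 46 with adenine, the lowest without 5hmC replicate 1 or C replicate 2, and 4 to 6 with guanine. For ATF1, leaving out any 1 array left 0 or 1 with adenine and 0 with guanine.

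Single members show the strand difference. The reverse complement of tgAGCAAt averaged 0.404 ± 1.21 on CREB1 5mC and 0.748 ± 0.435 on C (SD, n = 2 each), while the member as written averaged 8.39 ± 4.56 and 0.363 ± 0.100. The difference of the changes was 8.37 ± 2.27 (SE, limma adjusted p = 0.0446), and it passed the threshold without 5mC replicate 2 but not without any other of the 4 arrays. The reverse complement of GGCAAtca averaged 0.235 ± 0.258 on 5mC and 1.84 ± 0.655 on C, and the difference was 7.49 ± 1.18 (SE, limma adjusted p = 9.23e-04). For gtaAGCAA, 6.95 ± 0.979 (SE, limma adjusted p = 3.38e-04) came mainly from the other strand: its reverse complement had 2.10 ± 0.250 on 5mC and 6.87 ± 2.40 on C, and the member's own change was 2.18 with an adjusted p of 0.218. The member ggGGCAAt went the other way, with a difference of -14.2 ± 2.89 (SE, limma adjusted p = 0.00726), and its reverse complement averaged 16.7 ± 5.43 on 5mC against 1.85 ± 1.44 on C. That call was lost without 5mC replicate 1 or C replicate 2, while those at GGCAAtca and gtaAGCAA were kept without any 1 array.

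The 2 members with ACGT fell on both modified DNAs. AGCAAcgt had 4.80 and 2.73 on CREB1 5mC and 3.84 and 2.28 on 5hmC, against 9.44 and 14.8 on C. It fell, with changes of -8.37 ± 1.39 on 5mC and -9.08 ± 1.39 on 5hmC (SE, limma adjusted p = 3.19e-04 and 1.38e-04). GGCAAcgt had 1.72 and 1.42 on 5mC and 0.676 and 2.66 on 5hmC, against 5.03 and 6.52 on C, and fell, with changes of -4.21 ± 0.761 and -4.11 ± 0.761 (SE, limma adjusted p = 7.41e-04 and 0.001). The C arrays lay above all modified arrays in both. These were the only members that fell with either modification for CREB1, and they had the highest means of their purine on C. The falls were kept without any 1 array, except that of GGCAAcgt on 5hmC without 5hmC replicate 1 (adjusted p = 0.0519). Every probe with one of them holds ACGT, so the alternative that left out probes with other sites could not give them a value.

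For ATF1, the closest relative of CREB1 here, few members passed the threshold on 5mC. Members that rose were 9 of 256 with adenine and 11 of 256 with guanine, against 1.19% of all tested 8-mers. At an unadjusted p under 0.05 there were 63 and 76. The median change was 1.01 with adenine and 0.871 with guanine, and -0.025 over all tested 8-mers. Both ATF1 5mC arrays lay above both C arrays at 187 members with adenine and 173 with guanine, against 27.4% of all tested 8-mers. The ATF1 5mC arrays were alike, with medians of 1.19 and 1.19 with adenine and 0.751 and 0.892 with guanine, against 0.107 and 0.0678 and -0.0749 and -0.131 on C. Leaving out any 1 of the 4 ATF1 arrays removed nearly all of these calls, and the calls over all tested 8-mers dropped as well. Fitting the ATF1 arrays on their own gave 53 and 31, with 1888 over all tested 8-mers against 777 in the main fit.

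For ATF1 the largest called rise with adenine was at AGCAAcac, which also rose for CREB1, with 4.70 and 4.91 on 5mC against 0.548 and 0.568 on C, for 4.25 ± 0.863 (SE, limma adjusted p = 0.0109). agAGCAAc had 3.82 and 4.36 on 5mC, against -0.218 and 0.484 on C, for 3.96 ± 0.737 (SE, limma adjusted p = 0.00691). With guanine the largest was at tgaGGCAA, with 3.28 and 3.73 on 5mC against 0.325 and -0.120 on C, for 3.40 ± 0.923 (SE, limma adjusted p = 0.0481). In each the 5mC arrays lay close together. The other named ones were gcAGCAAc, caaAGCAA, AGCAAccg, GGCAAtgt, tcGGCAAt, ccGGCAAa and ctaGGCAA, with changes from 2.80 to 3.66. The highest mean for ATF1 on 5mC was, as for CREB1, at AGCAAtac, 6.31 and 7.52. For ATF1 on 5hmC no member of either purine rose in limma, against 0.0998% of all tested 8-mers, and 13 with adenine and 26 with guanine had an unadjusted p under 0.05. Both 5hmC arrays lay above both C arrays at 100 and 96 members, against 20.7%.

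On 5hmC against 5mC, ATF1 fell at 2 members with adenine and 2 with guanine, against 0.591% of all tested 8-mers. The 4 were 0.781% of the members, near the share of all tested 8-mers. The 3 largest falls were at GGCAAtgt, with 0.647 and 1.28 on 5hmC against 4.22 and 5.84 on 5mC, cAGCAAcc, with -1.47 and -0.117 against 3.19 and 2.65, and agAGCAAc, with 0.673 and 0.574 against 3.82 and 4.36. The changes were -4.07, -3.71 and -3.47 (limma adjusted p = 0.0366, 0.0144 and 0.0340). In none of them did the arrays overlap, but they were picked from called members, so this is no further support. Without any 1 of the ATF1 5mC or 5hmC arrays at most 1 of these calls was made.

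JUND had few called members. On 5mC, 2 with adenine and 4 with guanine rose, against 0.799% of all tested 8-mers, and 45 and 43 had an unadjusted p under 0.05. The risers were 0.781% of the members with adenine, about the share of all tested 8-mers, and 1.56% with guanine. Both 5mC arrays lay above both C arrays at 131 members with adenine and 100 with guanine, against 25.3%. With adenine the count was 0 without 5mC replicate 1 or C replicate 1 and 1 without 5mC replicate 2, and with guanine it was 1 without 5mC replicate 2 and 2 without 5mC replicate 1. The largest rise was at ccGGCAAa, with 5.59 and 7.51 on 5mC against 0.739 and 0.364 on C, for 6.00 ± 0.725 (SE, limma adjusted p = 0.00169). The others named were aAGCAAcc, with 4.92 and 3.75 against 0.445 and 0.0350, cctAGCAA, with 2.40 and 2.37 against -1.17 and -0.504, cGGCAAac, with 4.69 and 5.55 against 1.78 and 0.876, and tccGGCAA, with 3.57 and 3.58 against 1.40 and -0.359. The remaining one, GGCAAgcc, was named after its value was seen. None of the 6 holds T directly after GCAA, but cctAGCAA and tccGGCAA end there. Over all members with adenine the median change on JUND 5mC was highest with T next, 1.16, against 1.03 with G next. With guanine it was 0.502 with T next and 0.513 with G next.

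On 5hmC JUND had no called member, 0 of 65121 8-mers being called, with 9 members with adenine and 14 with guanine at an unadjusted p under 0.05. Both 5hmC arrays lay above both C arrays at 44 and 42 members, against 15.5% of all tested 8-mers. On 5hmC against 5mC JUND fell at 4 members of each purine, against 2.16%, and rose at 1 with guanine, against 0.946%. Falls were 1.56% of the members and rises 0.195%, both below the share of all tested 8-mers. The number that fell was 2 without 5mC replicate 1 and 4 without 5mC replicate 2. ccGGCAAa fell the furthest, with 1.60 and 2.53 on 5hmC against 5.59 and 7.51 on 5mC, a change of -4.48 ± 0.725 (SE, limma adjusted p = 0.00473). The member with guanine that rose, aatGGCAA, had 2.01 and 5.30 on 5hmC against 0.300 and 0.510 on 5mC (limma adjusted p = 0.0407). JUND 5hmC replicate 2, with 6377 probes not above background, was the dimmest of the arrays behind these values.

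For the other proteins the called pairs of adenine and guanine were nearer to the background than for CREB1. For ATF1 on 5mC the adenine member was called above its guanine partner in 24 of 256 pairs, against 8.04% of all pairs, and was the higher in 168 and 149 of them on the 2 arrays. For JUND on 5mC it was called above in 33 pairs, against 9.28%, and was the higher in 189 and 157. The next base ranked much as for CREB1 on ATF1 5mC: the median changes with T, C, G and A next were 1.80, 0.853, 0.982 and 0.650 with adenine, and 1.69, 1.04, 0.691 and 0.414 with guanine. With T after AGCAA none of 48 members rose in limma, and 15 had an unadjusted p under 0.05.

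Tested directly as a difference of effects, CREB1 and ATF1 differed past the threshold at no member, which does not show that they act alike. For CREB1 minus ATF1 no member was called on 5mC or on 5hmC in limma, where 0.272% and 0.215% of all tested 8-mers were called either way. On 5mC 14 members with adenine and 10 with guanine had an unadjusted p under 0.05, and on 5hmC 23 and 12. Without CREB1 5mC replicate 2 there were 6 called members on 5mC, without 5hmC replicate 2 there were 4 on 5hmC, and without CREB1 C replicate 1 there was 1 on each. For CREB1 minus JUND 6 members were called on 5mC and 4 on 5hmC, against 3.34% and 3.06%. Without CREB1 5mC replicate 2 that number was 51 on 5mC, and without CREB1 C replicate 2, JUND C replicate 1 or either JUND 5mC array it was 3. On 5hmC it was 37 without CREB1 5hmC replicate 2, 17 without JUND 5hmC replicate 1, and 2 without CREB1 C replicate 1 or JUND C replicate 2. The smallest adjusted p was that of gAGCAAca, which was named after its values were seen, with 4.49 and 3.98 on CREB1 5mC against 0.0630 and 0.604 on CREB1 C, while JUND had 1.10 and 0.483 on 5mC against 2.33 and 2.57 on C. The changes differed by 5.56 ± 0.874 (SE, limma adjusted p = 6.28e-04).

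The probes themselves can be compared without the z-score. The probes compared held 1 purine half-site on the synthesized strand, and neither ACGT nor GCAA after a pyrimidine on either strand. The 869 probes with AGCAA had a median signal of 1.85 and 1.12 times the array median on the CREB1 5mC arrays and 1.48 and 1.04 times on the 5hmC arrays, against 0.931 and 0.915 times on the C arrays. The 957 probes with GGCAA had 1.27 and 1.12 times on 5mC and 1.15 and 1.04 times on 5hmC, against 0.877 and 0.883 times on C. The 27688 probes with neither had 0.871 and 0.925 times on the CREB1 5mC arrays and 0.920 and 0.961 times on the 5hmC arrays, against 0.922 and 0.930 times on C. Probes with either half-site were thus brighter than probes with none on all 4 modified CREB1 arrays and close to them on the C arrays, and among those 4 arrays AGCAA exceeded GGCAA on replicate 1 of each modification.

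Probes were also split by flank. With T after AGCAA the 219 probes had 2.37 and 1.21 times the array median on CREB1 5mC, against 0.951 and 0.878 times on C. With T after GGCAA the 232 probes had 2.04 and 1.38 times on 5mC and 1.54 and 1.27 times on 5hmC, against 1.01 and 1.02 times on C. With TG before AGCAA the 46 probes had 3.06 and 1.13 times on 5mC and 3.92 and 1.28 times on 5hmC, against 1.00 and 0.983 times on C. The 1.13 on 5mC replicate 2 was no higher than the 1.12 of all AGCAA probes on that array. With TG before GGCAA the 50 probes had 1.75 and 0.968 times on 5mC, the second of these below the 1.12 of all GGCAA probes, against 0.827 and 0.814 times on C. Place on the probe moved with the signal too. With AGCAA starting at position 17 or later from the 5′ end of the synthesized variable bases, 437 probes had 2.31 and 1.24 times the array median on CREB1 5mC. With it at position 15 or earlier, 403 probes had 1.45 and 0.991 times. For GGCAA the same split gave 1.60 and 1.16 times over 458 probes and 1.09 and 1.07 times over 468. The part of this place effect in the members' z-scores was not tested.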

How the data were processed

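The z-score of each 8-mer on each array was computed by the authors, per the file headers, and the deposited score carries no unit. Its formula was not stated in any source used here. The deposited probe intensity values, the authors' scanner signals and local backgrounds per the file headers, were background-subtracted for the probe comparisons, and 8-mers were matched to the synthesized strand, where z-scores followed the probes (Spearman rho from 0.957 to 0.975).

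The 9 groups of 2 arrays were fitted together in limma 3.58.1 (R 4.3.3) over 65121 8-mers, leaving out 409 that no probe carries, with a variance trend, 9 residual degrees of freedom and Benjamini-Hochberg adjustment over all 8-mers at 0.05. Pairs that differ by A or G, and 8-mers against reverse complements, were fitted likewise over all such pairs. The fit was tested on simulated data. Other work used Python 3.11.15 with numpy 2.4.6 and pandas 2.3.3.

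The text names up to 5 rises and 3 falls per contrast with C and purine for CREB1 and ATF1 (3 each way for JUND). These were picked from called members whose arrays did not overlap between the groups, so the lack of overlap is no further support. Also named were the highest means, up to 3 each way for other contrasts, and the TGA and TTA series. The members and lists were chosen with earlier results of these data known. Alternatives changed the fit, scale, normalization and probes, and left out each array.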

Additional observations from a re-analysis of the deposited data

Results flagged for a closer look

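In 10 results the proteins differ between proteins by a direct test of the difference in effect, CREB1 minus JUND, in limma with p-values adjusted over all 8-mers. With 5mC, the effect was lower for CREB1 at both members that also hold ACGT, by -8.63 at AGCAAcgt (adjusted p = 0.0147) and -4.663 at GGCAAcgt (adjusted p = 0.0159), and at ccGGCAAa, by -4.966 (adjusted p = 0.00678). It was higher for CREB1 at gAGCAAca, by 5.557 (adjusted p = 6.28e-04), at tGGCAAca, by 3.229 (adjusted p = 0.0438), and at tttGGCAA, by 5.106 (adjusted p = 0.0189).

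With 5hmC, the effect was again lower for CREB1 at AGCAAcgt, by -9.479 (adjusted p = 0.00738). It was higher for CREB1 at gAGCAAca, by 4.653 (adjusted p = 0.00314), at tGGCAAtt, by 5.357 (adjusted p = 0.0181), and at tttGGCAA, by 4.699 (adjusted p = 0.0345). At tttGGCAA CREB1 had 4.14 and 0.964 on 5mC and 3.44 and 1.63 on 5hmC, against -0.516 and -0.502 on C, while JUND had -1.38 and 0.0923 on 5mC, against 1.49 and 1.31 on C. The share of all 8-mers called in the same contrasts was 3.34% with 5mC and 3.06% with 5hmC, above the share of members.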

How the results depend on the processing

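Of 87 effects of single members, pairs and strands, only 7 kept the direction and the side of the threshold in every alternative. Of the 1058 alternatives run for the 87, 631 kept both, 425 kept the direction but missed the threshold, and 2 turned. Both were the gain on CREB1 5mC at AGCAAcgt minus its guanine partner, 0.0782 after quantile normalization and 0.0538 with the inverse hyperbolic sine, against -4.16 as deposited. Counts of calls moved more, and the cause was not tested. Counts over all tested 8-mers moved too. On CREB1 5mC 1462 of all tested 8-mers rose in the main fit, 870 after quantile normalization and 179 without probes with other sites. In the same order they were 728, 439 and 136 on CREB1 5hmC, and 777, 983 and 135 on ATF1 5mC. Without probes with other sites 62824 8-mers were fitted. Members that rose, main count first, were as follows. CREB1 5mC, adenine 76: 23 after quantile normalization, 44 on a log2 scale, 45 with normexp and 22 on log2 without probes with other sites; guanine 50: 23, 28, 23 and 21. CREB1 5hmC, adenine 32: 21 without the variance trend, 8 on the protein's own arrays, 8 with quantile, 50 with the inverse hyperbolic sine, 54 with normexp and 9 without other sites; guanine 26: own arrays 16, quantile 13 and without other sites 13. ATF1 5mC, adenine 9: own arrays 53, sine 30, normexp 5 and without other sites 2; guanine 11: 31, 22 and, without other sites, 2. JUND 5mC, adenine 2: own arrays 0, quantile 5, sine 9 and without other sites 1; guanine 4: own arrays 0, sine 2, log2 1, normexp 0 and without other sites 1.

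Falls on 5hmC against 5mC were, for CREB1 (3), quantile 1, sine 1, log2 0, normexp 1 and without other sites 0; for ATF1 (4), own arrays 30, sine 10, normexp 2 and without other sites 2; for JUND (8), own arrays 0, log2 13 and normexp 3. Pairs with adenine higher were, on CREB1 5mC (35), own arrays 16, quantile 15 and log2 12; on 5hmC (34), own arrays 11 and quantile 21; as a change on 5mC (7), own arrays 3, quantile 0, sine 1, log2 0 and 11 with a replicate block; as a change on 5hmC, either way (5), own arrays 0, quantile 2, sine 2, log2 3 and 8 with a replicate block. Members above their reverse complement were, for CREB1 5mC, adenine (32), own arrays 9, quantile 8, sine 20 and log2 3, and guanine (16) 5, 4, 8 and 1; for CREB1 5hmC, adenine (11), own arrays 1, quantile 2 and log2 4, and guanine (9) own arrays 4, quantile 2, sine 3 and log2 2; for ATF1 5mC, adenine (8), own arrays 29 and log2 1, and guanine (3) own arrays 11, quantile 7 and log2 0. CREB1 minus ATF1 on 5mC (0) gave 1 without the trend. CREB1 minus JUND gave, on 5mC (6), 10 without the trend, quantile 3, sine 2, log2 0, normexp 0 and without other sites 0. On 5hmC (4) it gave 7 without the trend, quantile 1, log2 2 and without other sites 0. The counts in this paragraph were not set beside the calls over all features in the same fits.

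Leaving out 1 array gave these ranges, and for CREB1 and ATF1 the risers over all tested 8-mers changed as well. Risers ran from 12 to 149 and 11 to 61 with adenine and guanine for CREB1 5mC, 0 to 79 and 9 to 16 for CREB1 5hmC, 0 to 0 and 0 to 1 for ATF1 5mC, and 0 to 3 and 1 to 4 for JUND 5mC. The median changes for CREB1 ran from 1.04 to 3.27 and 0.846 to 1.495 on 5mC, and 0.649 to 2.34 and 0.691 to 0.890 on 5hmC. Falls on 5hmC against 5mC ran from 0 to 13 for CREB1, 0 to 1 for ATF1 and 2 to 8 for JUND. Pairs ran from 3 to 37 on 5mC, 0 to 44 on 5hmC and 2 to 22 as a change on 5mC, and from 1 to 34 either way as a change on 5hmC. Members above their reverse complement ran from 4 to 77 and 4 to 19 for CREB1 5mC, 0 to 46 and 4 to 6 for CREB1 5hmC, and 0 to 1 and 0 to 0 for ATF1. CREB1 minus ATF1 ran from 0 to 6 and 0 to 4 on 5mC and 5hmC, and CREB1 minus JUND from 3 to 51 and 2 to 37.

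Replicate numbers were shared between groups. Deviations of same-numbered arrays correlated from -0.163 to 0.636 over pairs of groups, and between 5hmC and C of one protein by 0.202 for CREB1, 0.216 for ATF1 and 0.636 for JUND. Not every correlation was over 0.1, so the numbers were not taken to pair the arrays, and a shared factor between some groups was not tested. With the number as a replicate block, risers with adenine and guanine were 86 and 51 for CREB1 5mC, 41 and 24 for CREB1 5hmC, 8 and 8 for ATF1 5mC, and 2 and 3 for JUND 5mC, and 8 members fell on JUND 5hmC against 5mC. The precision is limited by the 2 arrays a group and, on the dimmest, by signal over background. Without probes with other sites, the 2 members with ACGT could not be fitted.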
